A study of Homo sapiens with 36 samples.

Results

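The control libraries of H9 were set against the control libraries of the other cutaneous T cell lymphoma (CTCL) lines of the series, MyLa and Mac1, to find the genes that separate H9 from each of them in the same direction. The members were the 7 libraries that carried a scrambled hairpin in these lines (H9 2, MyLa 3, Mac1 2), out of 36 polyadenylated RNA libraries in all. The series asked what GATA3 does in T cell neoplasms by knocking it down with a short hairpin in 3 CTCL and 4 T-cell acute lymphoblastic leukaemia (T-ALL) lines. All 7 libraries are labelled WT and cutaneous T lymphocyte. H9 is a clonal derivative of HUT 78, a line from the blood of a person with Sézary syndrome. MyLa, written MylaCD4+ in the labels, came from mycosis fungoides, and Mac1 is a further CTCL line. All were grown in the same RPMI medium with fetal bovine serum. Each line is 1 cell line with its own history, so a difference here is between lines, and the line cannot be told apart from how each culture was kept or handled. Nothing in the labels ties a replicate to its own culture. The p-values therefore rest on library-to-library spread, part or all of which may be technical.

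Sézary syndrome and mycosis fungoides are neoplasms of mature, mostly CD4+ skin-homing T cells. Such cells carry a clonal T cell receptor, made of TCR chains and the CD3 subunits, which signals through the kinases LCK and ZAP70 and the adaptor LAT. They are known for loss of pan-T antigens such as CD7, for type 2 cytokine features driven by GATA3, and for disturbed STAT and NF-κB pathways. Krüppel-type zinc finger genes, which come up below, are a large family of DNA-binding repressors that sit in clusters on chromosome 19, where many of them are known to silence transposable elements.

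Each of these libraries held 25896554 to 34033717 expected counts. Levels are given as CPM, the usual depth-scaled count unit, after TMM scaling, which evens out differences in library composition. Libraries of a line were close to each other, with a lowest Pearson correlation of log2 levels of 0.994 within lines, against 0.741 between H9 and MyLa, 0.749 between H9 and Mac1 and 0.796 between MyLa and Mac1. The replicates of a line differed by more than sampling noise and were kept as separate samples. GATA3, the gene the series targets, was at 151 and 145 CPM in the H9 controls, at 256, 247 and 242 in MyLa and at 81.6 and 99 in Mac1. In the knockdown libraries of the same lines its mean was 62.2, 151 and 40.8 CPM. H9 thus stood between the other lines for GATA3, which does not separate it from both.

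Most genes differed between any 2 lines. With edgeR's quasi-likelihood test and a Benjamini-Hochberg adjusted p below 0.05, 79.3% of 18123 tested genes differed between H9 and MyLa (7228, or 39.9%, higher and 7137, or 39.4%, lower in H9) and 79.5% between H9 and Mac1 (7438, or 41.0%, higher and 6965, or 38.4%, lower). MyLa and Mac1 differed from each other in 75.9%. Genes called the same way in both H9 contrasts were 5163 higher in H9 (28.5% of tested genes) and 4286 lower (23.6%). These are the genes that separate H9. Both contrasts use the same 2 H9 libraries, so a call in one is not independent of the call in the other.

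A stricter rule, which also asks for a fold change of at least 4 in each contrast, left 1637 genes higher (9.03%) and 942 lower (5.2%) in H9. By the same rule MyLa stood apart from H9 and Mac1 with 1064 genes higher (5.87%) and 832 lower (4.59%), and Mac1 from H9 and MyLa with 840 higher (4.63%) and 1272 lower (7.02%). Both H9 libraries lay outside the range of the 5 others for all 1637 higher genes and for 924 of the 942 lower ones (31.7% and 26.5% of all tested genes). This is read from the libraries that chose the genes, so it describes them and supports nothing. Just inside the threshold was SKAP2 at mean levels of 79.7 CPM in H9, 19.7 in MyLa and 17.4 in Mac1, and just outside it was CBX5 at 441, 110 and 72.2. Part of the stricter genes had no count at all on the low side. Of the 1637 higher genes 404 had no count in any of the 5 MyLa and Mac1 libraries, and of the 942 lower genes 293 had none in either H9 library. Most of these were low on the other side too. Only 139 of the 404 reached a mean of 5 CPM in H9, and 50 of the 293 reached it in both MyLa and Mac1. The share without counts over all tested genes was not taken. A count of 0 allows up to 3 counts over a group, here 0.0552 CPM in H9, 0.0373 in MyLa and 0.0513 in Mac1, counting error only. Folds against such a group are given below as lower bounds at that floor.

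**Figure D1:**
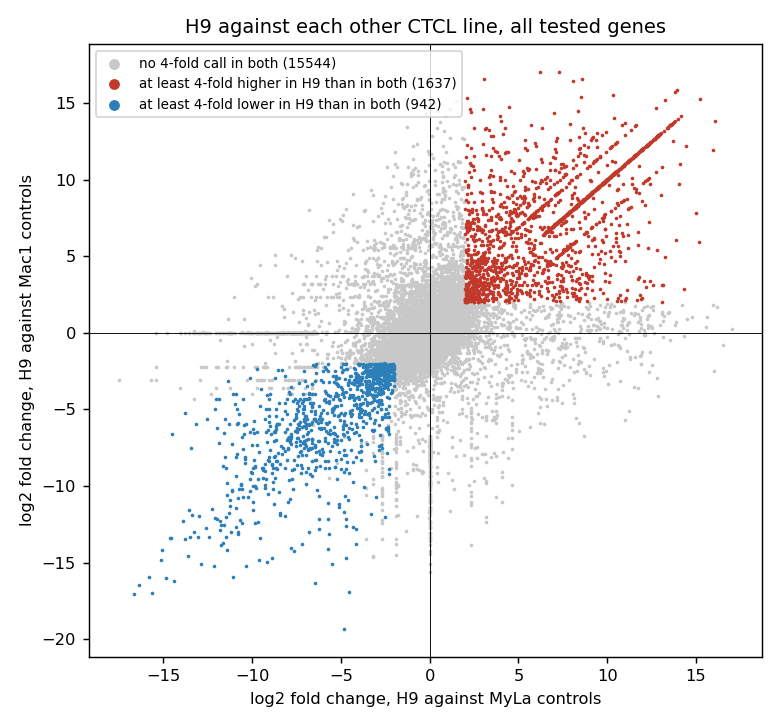
Fitted log2 fold change of every tested gene in H9 against MyLa (horizontal axis) and against Mac1 (vertical axis); each point is a gene. The 1637 genes at least 4-fold higher in H9 than in both fill the upper right and the 942 lower genes the lower left; the straight lines of points are genes with no counts in 1 or both lines of a contrast, whose fitted value depends on the prior count.

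The separate GATA3 knockdown libraries of the same lines (8 libraries) gave the same rule a second set of samples. Of the 1637 higher genes 1577 were tested there, and 1424 (90.3%) were again at least 4-fold higher in H9 than in both, where the share over all genes tested was 8.84%. Of the 942 lower genes 899 were tested there and 737 (82.0%) were again at least 4-fold lower, against 5.05% of all genes. None of either set was called in the opposite direction by that rule. Of the 1637 higher genes 755 (46.1%) were also called above each of the 4 T-ALL lines, and so above all 6 other lines, and of the 942 lower genes 183 (19.4%) were called below all 6. Over all genes tested in the 7 lines 9.7% and 5.91% were so called. These shares cannot be compared, since MyLa and Mac1 are among the 6 lines and the H9 libraries are the same.

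Promoter sequences of 4 genes are shown here because each gene was near or at 0 on one side of the comparison. ZNF160 and ZNF71 stand for the chromosome 19 zinc finger genes that only H9 expressed among the 3 lines. LCK is a T cell signalling gene that was at 0 or 1 count in MyLa and Mac1. BCAT1 stands for the genes without a count in H9. Each sequence runs 5′ to 3′ on the gene's strand from 250 bases before to 50 after the start in RefSeq (GRCh38.p14). Capitals mark CG steps, the sites of DNA methylation. DNA methylation was not analysed here.
ZNF160 (chr19:53103373-53103672, minus strand): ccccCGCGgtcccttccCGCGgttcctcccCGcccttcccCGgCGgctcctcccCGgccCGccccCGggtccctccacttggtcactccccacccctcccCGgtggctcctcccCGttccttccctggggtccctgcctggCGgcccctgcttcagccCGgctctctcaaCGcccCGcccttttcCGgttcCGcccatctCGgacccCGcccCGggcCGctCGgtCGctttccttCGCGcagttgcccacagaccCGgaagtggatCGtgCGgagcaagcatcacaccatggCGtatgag
ZNF71 (chr19:56595052-56595351, plus strand): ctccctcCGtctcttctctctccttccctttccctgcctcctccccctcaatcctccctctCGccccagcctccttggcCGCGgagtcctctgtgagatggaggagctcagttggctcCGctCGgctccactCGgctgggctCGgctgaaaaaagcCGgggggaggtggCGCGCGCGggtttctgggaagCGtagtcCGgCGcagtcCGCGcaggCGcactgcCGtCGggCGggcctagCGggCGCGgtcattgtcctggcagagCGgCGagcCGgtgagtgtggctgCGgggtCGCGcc
LCK (chr1:32251015-32251314, plus strand): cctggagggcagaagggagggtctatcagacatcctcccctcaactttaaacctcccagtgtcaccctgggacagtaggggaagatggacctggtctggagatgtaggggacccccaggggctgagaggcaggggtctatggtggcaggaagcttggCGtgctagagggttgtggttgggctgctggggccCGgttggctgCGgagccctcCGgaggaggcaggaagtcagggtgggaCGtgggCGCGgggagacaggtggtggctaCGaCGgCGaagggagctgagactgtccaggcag
BCAT1 (chr12:24949052-24949351, minus strand): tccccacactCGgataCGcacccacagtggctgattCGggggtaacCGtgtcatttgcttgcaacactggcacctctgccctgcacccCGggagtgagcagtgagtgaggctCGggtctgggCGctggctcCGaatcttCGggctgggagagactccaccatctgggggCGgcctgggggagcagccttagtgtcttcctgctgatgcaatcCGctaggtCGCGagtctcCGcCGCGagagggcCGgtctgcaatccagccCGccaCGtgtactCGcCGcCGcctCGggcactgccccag
The windows hold 30 (ZNF160), 31 (ZNF71), 10 (LCK) and 23 (BCAT1) CG steps, a motif that reads the same on both strands. The median over 27305 such windows was 14, and 22.1%, 20.4%, 56.0% and 35.6% of windows held at least as many in that order. Only 74.2% of the higher and 78.0% of the lower coding genes at 5 CPM or more had a window in the table, which is too few to compare the groups' promoters.

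T cell receptor and signalling genes were mostly higher in H9. Of 40 tested genes of the TCR constant chains, CD3 subunits and proximal signalling, 26 (65.0%) were higher in H9 than in both other lines and 5 (12.5%) lower, beside 28.5% and 23.6% of all tested genes. The median log2 difference was 1.63 against MyLa and 1.98 against Mac1, and over all genes -0.00 and 0.01; with means put at the floor the list's medians were 1.64 and 1.99. In bulk RNA, fewer cells with a transcript and less of it per cell cannot be told apart.

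CD3E, a signalling subunit of the receptor complex, stood at 221 and 214 CPM in the H9 libraries, at 0.18, 0.147 and 0.157 in MyLa and at 0 in both Mac1 libraries. MyLa thus had 13 CD3E counts over 3 libraries, and Mac1 none. The mean of 217 ± 5.44 CPM (SD, n = 2) in H9 was 1345-fold that of MyLa (0.162 ± 0.017, n = 3; edgeR adjusted p = 1.87e-17) and at least 4237-fold higher than in Mac1. CD3D and CD3G, its partner subunits, separated H9 chiefly from Mac1: CD3D was at 146 and 146 CPM in H9, at 124, 119 and 127 in MyLa and at 0 in Mac1. CD3G was at 99 and 104 in H9, at 72.2, 73.9 and 69.5 in MyLa and again at 0 in Mac1. MyLa therefore lacked nearly all CD3E message but not that of the other CD3 chains. CD247, the zeta chain, was present in all 3 lines, at means of 194 in H9, 62 in MyLa and 79.1 in Mac1.

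The TCR chains followed the same order with differences between them. TRBC1, the first beta constant gene, was at 606 and 611 CPM in H9, at 4, 3.42 and 4.33 in MyLa and at 0 in Mac1. TRBC2, the second beta constant gene, had means of 160 in H9 and 201 in MyLa, so it was higher in MyLa (log2 difference -0.34 ± 0.0506 SE, edgeR adjusted p = 1.61e-05), and 20.5 in Mac1. TRAC, the alpha constant gene, had means of 98.1 in H9, 27.8 in MyLa and 5.19 in Mac1. Reads of the near-identical TRBC1 and TRBC2, and of TRGC1 and TRGC2, may have been split by the counting. Among variable segments at 5 CPM or more, TRBV13 was at 84.5 and 82.5 CPM in H9, TRAV20 at 19.5 and 17.5 and TRAV8-6 at 19.1 and 16.9, and all 3 had no count in the other lines. TRBV6-5 had the opposite pattern, at 75, 66.9 and 76.5 CPM in MyLa and at 0 in H9 and Mac1. The lines thus differed in the receptor segments they transcribe.

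Downstream of the receptor, LCK, the kinase that starts the signal, had its promoter window shown above. It was at 265 and 267 CPM in H9, at 0, 0 and 0.0393 in MyLa, which is 1 count over 3 libraries, and at 0 in Mac1. H9 was at least 5189-fold higher than Mac1, and the fit gave an adjusted p of 2.27e-17 against MyLa and 8.69e-17 against Mac1 (edgeR). In the T-ALL lines LCK was at 132 to 967 CPM, so H9 was not set apart from them. GRAP2, an adaptor that binds LAT and SLP-76, was at 32 and 30.6 CPM in H9, at most 0.118 in MyLa and at 0 in Mac1. FYN, the other SRC-family kinase of T cells, had means of 231, 32.5 and 0.224, and LAT of 123, 17.8 and 5.66 CPM in H9, MyLa and Mac1. PTPRC (CD45), the phosphatase that activates LCK, was at 384 and 400 CPM in H9, at 38.6 to 45.5 in MyLa and at 184 and 188 in Mac1.
ZAP70 was not highest in H9, with means of 255 in H9, 298 in MyLa and 154 in Mac1. The 5 members of the list lower in H9 included PTPN6, which encodes the inhibitory phosphatase SHP-1 and was at 5.93 and 6.21 CPM in H9 against 178 to 192 in MyLa and 35.3 to 37.2 in Mac1. THEMIS, a thymocyte selection factor, had a mean of 2.41 in H9, 45.2 in MyLa and 20.2 in Mac1, and SH2D2A, an LCK-binding adaptor, 9.01, 81.5 and 82. PAG1, an adaptor that restrains SRC-family kinases, was lower in H9 by less than 4-fold, and its call against MyLa was lost in the fit of all 36 libraries (edgeR adjusted p = 0.0986) and without H9 replicate 2 (0.0514).

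**Figure D2:**
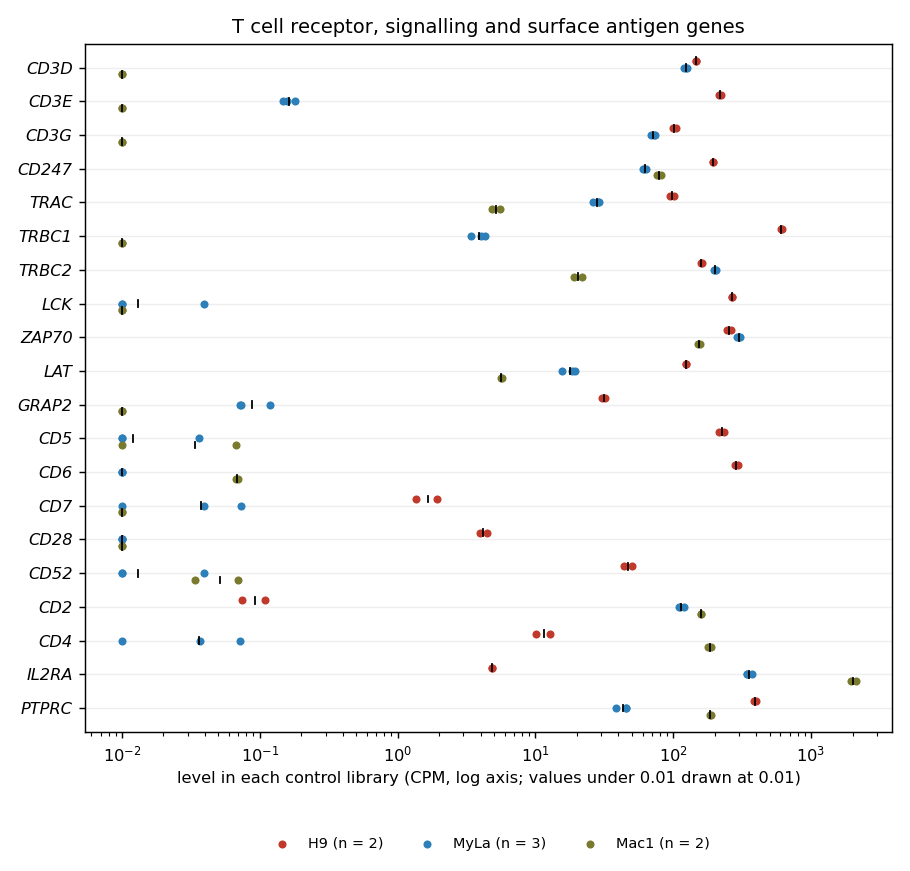
CPM of T cell receptor, signalling and surface antigen genes in each of the 7 control libraries, on a log axis with 0 drawn at 0.01; points are libraries and short black lines are the means. H9 points lie to the right for CD3E, TRBC1, LCK, CD5 and CD6 and to the left for CD2 and IL2RA, while CD4 is lowest in MyLa and highest in Mac1.

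Pan-T surface antigens split into both directions. Of 30 tested surface antigens 15 (50.0%) were higher in H9 than in both lines and 8 (26.7%) lower. The lower share was near that of all tested genes (23.6%), and the higher share was above it (28.5%). CD5, a scavenger receptor that dampens TCR signals, was at 234 and 216 CPM in H9 against at most 0.0361 in MyLa and 0.0673 in Mac1. CD6, its neighbour on chromosome 11 and a receptor of the same family, was at 294 and 279 against 0 in MyLa and 0.0673 and 0.0696 in Mac1. TMEM132A, the third gene of this run, had a mean of 2.11 CPM in H9 and no count in the other lines. CD52, the target of alemtuzumab, was at 43.9 and 50 CPM in H9 and at 0.0696 or below in every other library. CD38, an ectoenzyme of activated lymphocytes, had means of 89.3, 0.012 and 0.58, and THY1, known from mouse T cells, of 225, 2.76 and 0.0168. CD28, the costimulatory receptor, was low in H9 at 4.45 and 3.94 CPM and at 0 in the others. CD7, often lost in Sézary cells, was low in all 3 lines, at 1.37 and 1.94 in H9 and no more than 0.0735 elsewhere.
CD2, an adhesion receptor of T and NK cells, went the other way. It was at 0.0741 and 0.11 CPM in H9, at 119, 113 and 109 in MyLa and at 158 and 159 in Mac1. The difference of the mean from MyLa was 1238-fold and from Mac1 1730-fold (edgeR adjusted p = 2.76e-17 and 2.25e-17). CD58, the CD2 ligand, was also lower in H9, with means of 5.82, 46 and 32.3. IL2RA (CD25), the alpha chain of the IL-2 receptor, was at 4.85 and 4.86 CPM in H9, at 372, 345 and 342 in MyLa and at 1941 and 2110 in Mac1. SLAMF1, a costimulatory receptor, had means of 0.938, 26.9 and 95.1, and CD99 of 60.8, 293 and 358.

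CD4 separated all 3 lines from each other. It was at 12.8 and 10.1 CPM in H9, at 0.0721, 0.0368 and 0 in MyLa and at 180 and 189 in Mac1. The label of MyLa names CD4, and the 3 libraries hold 3 CD4 counts in all. H9 was higher than MyLa and lower than Mac1 (log2 difference -4.02 ± 0.0923 SE, edgeR adjusted p = 6.41e-15), so CD4 fails the rule. The 14 defining T cell markers summed to 2667 to 2687 CPM in H9, to 932 to 961 in MyLa and to 774 to 801 in Mac1. In Mac1, 6 of the 14 had no count (CD3D, CD3E, CD3G, TRBC1, CD7 and LCK).

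Markers of other cell types were checked in the same libraries. Of 12 fibroblast and endothelial markers the sum was 4.31 to 4.48 CPM in H9, 275 to 320 in MyLa and 94.2 to 96.7 in Mac1, with 8, 5 and 6 markers at 0. COL3A1, a fibrillar collagen, made up most of the MyLa sum at 203, 176 and 214 CPM and had no count in H9, while DCN had none in any of the 3 lines. Of 12 B cell markers H9 summed to 312 to 345, MyLa to 189 to 194 and Mac1 to 162 to 171. MS4A1 had no count in MyLa and Mac1, and VPREB1 none in any of the 3. Myeloid markers summed to 12.2 to 12.6 CPM in H9, 44.9 to 45.9 in MyLa and 39.6 to 44.6 in Mac1. Erythroid and megakaryocyte markers summed to 7.4 to 17.5 CPM in every library. Keratinocyte and epithelial markers summed to 122 to 125 in H9, 191 to 197 in MyLa and 88.3 to 88.6 in Mac1. SPI1, MPO, KRT14 and KRT1 had no count in any of the 3 lines, LYZ had none in H9 or MyLa, and the part of these markers in the results was not tested.

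The zinc finger genes of chromosome 19 formed the largest block of neighbouring genes higher in H9, a pattern picked out after its values were seen. Of 203 tested zinc finger genes there 148 (72.9%) were higher in H9 than in both lines and 5 (2.46%) lower. Among all tested genes the shares were 28.5% and 23.6%. At the 4-fold rule 101 (49.8%) were higher and 2 (ZNF57 and ZNF296) lower. On all other chromosomes together 20 of 254 zinc finger genes (7.87%) were 4-fold higher. Of the 101, MyLa had no count for 73, Mac1 none for 57, and 49 had none in either. In H9 the 101 ranged from 0.46 to 27.4 CPM with a median of 6.53, while the highest mean was 3.61 in MyLa and 3.75 in Mac1. At 1 CPM or more were 95 of the 101 in H9, 6 in MyLa and 18 in Mac1.
ZNF160, a KRAB zinc finger gene, was at 26.7 and 26.4 CPM in H9 and at 0 in the 5 other libraries, at least 711-fold higher than MyLa and 518-fold higher than Mac1. ZNF71 was at 26 and 25.8 CPM and ZNF28 at 18.6 and 18.2, again with no count in the others. ZNF264 was at 27.7 and 27.1 CPM in H9, at 0 in MyLa and at 3.16 and 3.13 in Mac1. The summed level of all 203 genes was 2539 to 2559 CPM in H9, 1292 to 1316 in MyLa and 1114 to 1119 in Mac1. In the knockdown libraries 96 of the 101 were again at least 4-fold higher in H9 than in both lines. Near-identical members of the family can share reads, so single genes are less certain than the block.

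These genes did not set H9 apart from the T-ALL lines. Only 4 of the 101 were called above all 6 other lines. The 203 genes summed to 2569 to 2747 CPM in CCRF-CEM, 3178 to 3242 in MOLT4, 3180 to 3241 in SUP-T1 and 1962 to 2148 in THP6. Of the 101, 82 were at 1 CPM or more in CCRF-CEM, 94 in MOLT4, 79 in SUP-T1 and 37 in THP6. MyLa and Mac1 were thus the low lines among the 7, and ZNF160 for example lay between 25.3 and 34.8 CPM in the T-ALL lines.

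**Figure D3:**
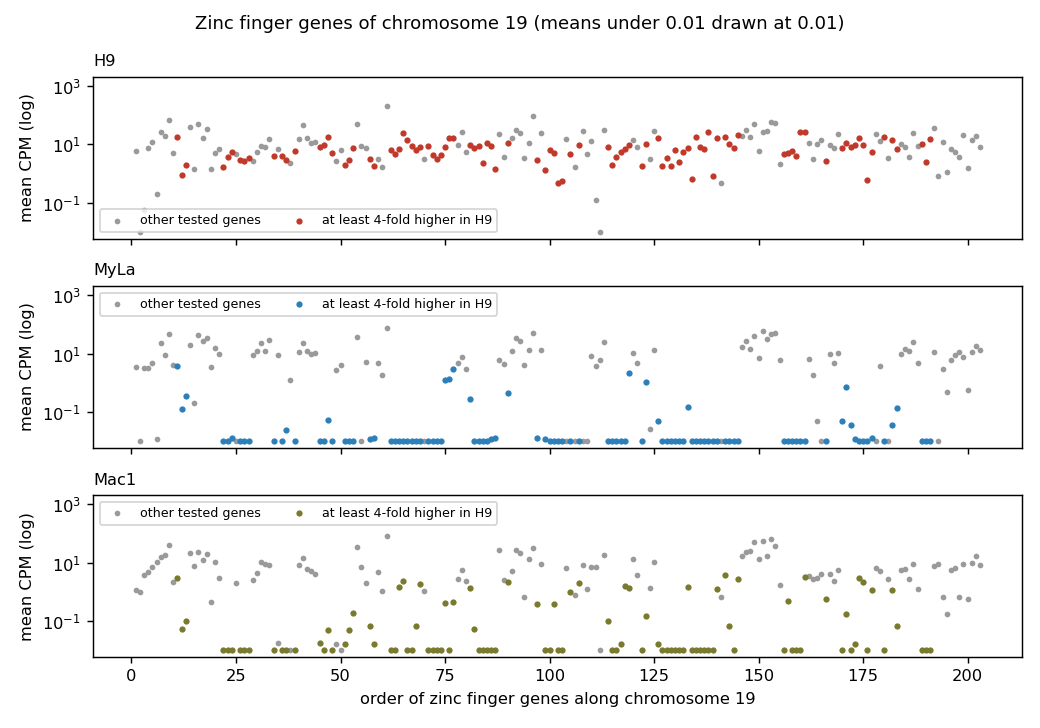
Mean CPM (log axis, values under 0.01 drawn at 0.01) of the 203 tested zinc finger genes of chromosome 19 in their order along the chromosome, one panel per line; coloured points are the 101 genes at least 4-fold higher in H9. The coloured genes lie between 0.46 and 27.4 CPM in H9 and mostly at the bottom in MyLa, with more of them above it in Mac1.

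Runs of neighbouring genes were also counted over the genome, a run being at least 3 adjacent tested coding genes called the same way at 4-fold. There were 49 runs higher in H9 (204 genes, the longest of 15) and 14 lower (42 genes, the longest of 3). On chromosome 19, 16.5% of tested coding genes were 4-fold higher in H9, against 9.39% on all chromosomes. The 15 runs with zinc finger genes held 86 genes there, 84 of them zinc finger genes, and they were 8 of the 10 runs of 5 or more genes. The longest lay at chr19:52297177-53356906 and ran from ZNF480 to ZNF845. DESeq2 did not call ZNF528 in this run (adjusted p = 0.0811 against MyLa and 0.11 against Mac1). Nor did DESeq2 call ZNF823 (0.0855 and 0.115) or ZNF284 (0.176 and 0.213), which lie in other zinc finger runs.
The other runs of 5 or more genes higher in H9 were one of 5 genes at chr10:46375627-47484158 (ANXA8L1, SYT15, PTPN20, ZNF488 and ANXA8), with H9 means of 0.442 to 5.26 CPM, and one of 8 genes at chr12:9752486-10420595, the natural killer receptor cluster. In the former the call of SYT15 against MyLa was lost with the replicate block (edgeR adjusted p = 0.0645) and without H9 replicate 1 (0.0625), and that of ANXA8L1 against Mac1 without Mac1 replicate 1 (0.057). In the latter CD69, an early activation lectin, was at 31 and 32.4 CPM in H9 and no more than 0.368 in the others. KLRK1 (NKG2D), an activating receptor for stress ligands, was at 9.56 and 13.1 CPM against 0, and KLRC4 and KLRC3 had H9 means of 1.41 and 0.516 with no count elsewhere. DESeq2 did not call KLRC3 (adjusted p = 0.184 against MyLa and 0.221 against Mac1). The read-through KLRC4-KLRK1 shares exons with its parts, so their counts cannot be fully separated. NCR3 (NKp30) was at 20.7 and 23 CPM in H9, at 0.18 to 0.433 in MyLa and at 0 and 0.0348 in Mac1. NCR1 (NKp46) was at 0 in H9, at 4.6 to 5.04 in MyLa and at 2.46 and 2.54 in Mac1. Of 17 tested NK receptor genes 7 (41.2%) were higher and 2 (11.8%) lower in H9, beside 28.5% and 23.6% of all tested genes.
KIR3DL2 (CD158k), a surface marker of Sézary cells, was low throughout at 0.037 and 0.183 CPM in H9, 0.515 to 0.793 in MyLa and 0 in Mac1. H9 was lower than MyLa (log2 difference -2.60 ± 0.572 SE, edgeR adjusted p = 0.00084). The call against Mac1 (edgeR adjusted p = 0.0186) was lost without H9 replicate 2 (0.19), without Mac1 replicate 1 (0.0726), without Mac1 replicate 2 (0.0688) and with the replicate block (0.0563). KIR genes are near-identical, which adds to the uncertainty.

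Lower runs held genes with no count in H9. At chr9:20341665-21335380 lie MLLT3, a subunit of the super elongation complex, FOCAD, a focal adhesion protein, and KLHL9, an adaptor of a ubiquitin ligase. MLLT3 was at 0 in H9, at 15.3, 14.6 and 13.1 CPM in MyLa and at 58.1 and 63.6 in Mac1. FOCAD was at 0, at 22.8 to 26 and at 45.5 to 47, and KLHL9 at 0, at 18.4 to 20.1 and at 19.6 to 19.7. None of the 3 had a count in the H9 knockdown libraries, and all were called below every one of the 6 other lines. Further along the arm, CDKN2A, which encodes p16 and ARF, was at 0 in H9 and MyLa and at 3.67 and 3.69 CPM in Mac1, and MTAP was at 0.144 or below in all 7 libraries.
At chr10:102402617-102432661 lie PSD, FBXL15 and CUEDC2. CUEDC2, a regulator of IKK and of protein degradation, was at 0 in H9, at 111, 105 and 109 CPM in MyLa and at 48.1 and 51.1 in Mac1. FBXL15, a ubiquitin ligase subunit, was at 0 against 16.7 to 19.4 and 19.4 to 21.4, and PSD at 0 against 2.94 to 3.23 and 1.95 to 2.09. NFKB2, which encodes the NF-κB precursor p100, is the gene just before this run (chr10:102394110-102402529) and was at 544 and 502 CPM in H9, 793 to 920 in MyLa and 322 to 348 in Mac1. NFKB2 thus kept a level between those of the other lines where the 3 genes beside it had no count.

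Cell cycle and apoptosis genes followed. CDKN1A (p21), a cyclin-dependent kinase inhibitor, was at 1.93 and 2.52 CPM in H9, at 215 to 220 in MyLa and at 259 and 291 in Mac1. RB1, the retinoblastoma protein, was at 1 and 0.475 CPM in H9, at 60.2, 61.2 and 53 in MyLa and at 44.2 and 44.7 in Mac1. For both genes H9 did not overlap with the other lines, as for 924 of the 942 genes lower at 4-fold. Over all tested genes 26.5% were so placed. The same libraries chose these genes, so this only describes them. Of 31 tested cell cycle inhibitor and stress response genes 11 (35.5%) were lower and 8 (25.8%) higher in H9. The shares of all tested genes were 23.6% and 28.5%. Also lower were FDXR, a mitochondrial reductase (means of 30.1, 135 and 146 in H9, MyLa and Mac1), the pro-apoptotic BAX (67.8, 218 and 171) and DDB2, a DNA repair gene (35.3, 129 and 66.5). Higher genes included CDKN1C (p57) at 10.1, 0.0859 and 0.222 and SESN2, a stress-induced antioxidant gene, at 172, 18.6 and 48.3.

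Of 15 tested BCL2 family genes 9 (60.0%) were higher in H9 and 2 (13.3%) lower, beside 28.5% and 23.6% of all tested genes. BCL2L11, which encodes the pro-apoptotic BIM, was at 202 and 196 CPM in H9, at 0.685, 0.405 and 0.511 in MyLa and at 0 in Mac1. H9 was 372-fold above MyLa and at least 3872-fold above Mac1. The pro-apoptotic BMF had means of 57.4, 5.15 and 5.95 and BIK of 5.0, 0.0262 and 0.0348. The anti-apoptotic genes BCL2 (98.4, 3.82 and 25.1) and BCL2L1 (819, 348 and 70.3) were higher as well. BCL2L2, which encodes anti-apoptotic BCL-w, was lower, at 0.313, 13.8 and 29.8 CPM. MCL1 did not meet the rule, with means of 114, 123 and 202 and an edgeR adjusted p of 0.0687 against MyLa.

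**Figure D4:**
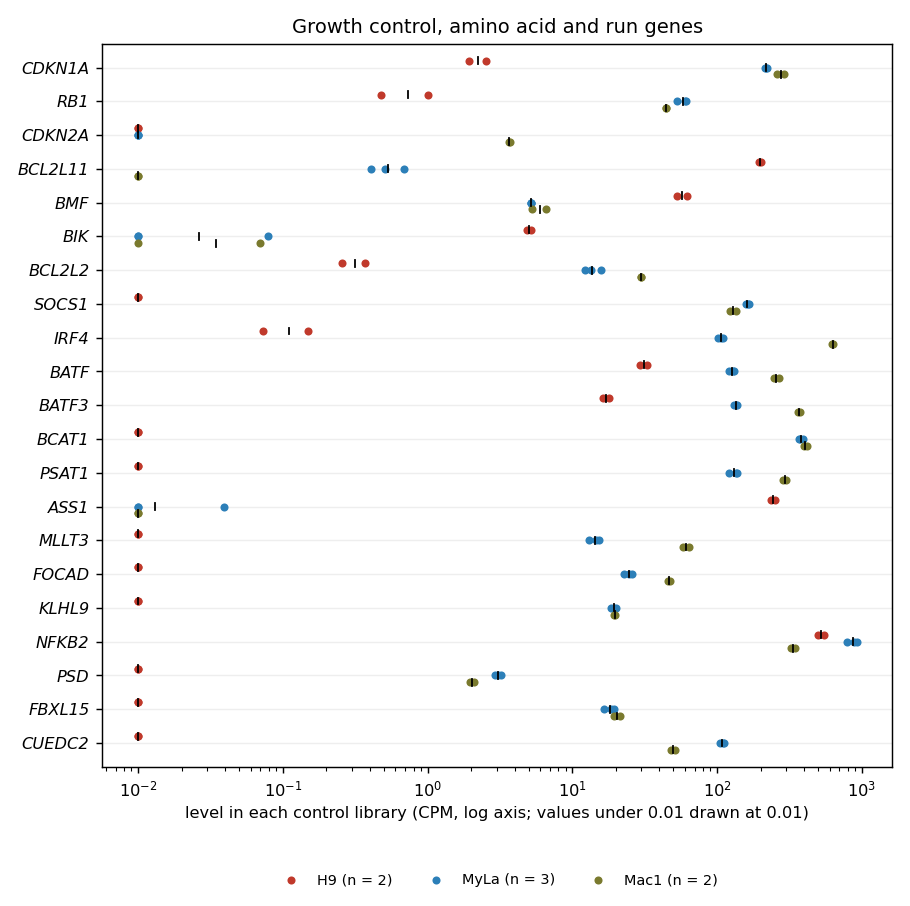
CPM of growth control, amino acid and positional run genes in each of the 7 control libraries (log axis, 0 drawn at 0.01; points are libraries, black lines means). CDKN1A, RB1, SOCS1, IRF4, BCAT1 and PSAT1 lie far to the left in H9, BCL2L11 and ASS1 far to the right, and NFKB2 is near the other lines while PSD, FBXL15 and CUEDC2 are at 0 in H9.

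Cytokine signalling genes leaned lower. Of 45 tested cytokine receptor, JAK, STAT and feedback genes 18 (40.0%) were lower in H9 and 6 (13.3%) higher. Among all tested genes 23.6% were lower and 28.5% higher. SOCS1, the feedback inhibitor of JAK kinases, had no count in H9 and was at 166, 158 and 163 CPM in MyLa and at 123 and 135 in Mac1, so H9 was at least 2943-fold and 2335-fold lower. STAT5A (143, 817 and 272), STAT6 (130, 329 and 273), JAK3 (121, 306 and 235) and IL21R (56, 190 and 361) were lower in H9 by mean CPM in that order of lines. The common cytokine receptor chains were higher: IL2RG at 464, 181 and 84.4 and CSF2RB, the beta chain for IL-3, IL-5 and GM-CSF, at 378, 76.1 and 0.323. IL16, a chemoattractant for CD4+ cells, was at 187 and 179 CPM in H9, 41.7 to 43 in MyLa and 0 in Mac1.

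T helper programmes differed by type. Of 16 tested type 17 genes 9 (56.2%) were lower and 1 (CCL20, 6.25%) higher in H9, beside 23.6% and 28.5% of all tested genes. IL17F, a neutrophil-attracting cytokine, was at 0 in H9, at 0.0721 to 0.157 in MyLa and at 2792 and 3154 CPM in Mac1, and IL22 was at 0, at 1.84 to 2.34 and at 107 and 130. Mac1 was the high line for both cytokines. Of 18 tested type 2 genes 7 (38.9%) were higher and 8 (44.4%) lower, beside 28.5% and 23.6% of all tested genes. IL10, an anti-inflammatory cytokine, was at 39.3 and 39 CPM in H9, 0 in MyLa and 4.54 and 4.52 in Mac1, and CCR8, a type 2 homing receptor, at means of 23.9, 0.384 and 0. CRLF2, the TSLP receptor, was at 0.0553, 43.1 and 0.735, and CCR4, the skin-homing receptor targeted in CTCL, at 74.3, 185 and 360. IL4 was higher in H9 at a mean of only 0.46 CPM. IL1RL1 (ST2) had a mean of 2.21 CPM and no count in the others; DESeq2 did not call it (adjusted p = 0.0712 and 0.0984), and it did not meet the rule in the knockdown libraries, where its H9 mean was 0.21.

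Of 29 tested type 1 and cytotoxic genes 9 (31.0%) were higher in H9 and 5 (17.2%) lower, beside 28.5% and 23.6% of all tested genes. GZMK, a granzyme, was at 46.5 and 49.5 CPM in H9 and at 0 in the 5 other libraries, at least 1286-fold above MyLa and 936-fold above Mac1. GZMA was at 24.6 and 28.2 CPM against at most 0.0787 in MyLa and 0.452 in Mac1, and CTSW, a protease of cytotoxic cells, at 35.5 and 38.7 against at most 0.0787. EOMES, the transcription factor of effector and memory T cells, had means of 24.5, 1.01 and 3.34, and GNLY (granulysin) of 6.88, 0.0612 and 0.0168. The lower members were IL12RB1, IL12RB2, HOPX, PRDM1 and CCL3. IL12RB2, a chain of the IL-12 receptor, had means of 0.055, 0.199 and 61.4 CPM in H9, MyLa and Mac1. Its call against MyLa was lost with DESeq2 (adjusted p = 0.0625), without H9 replicate 1 (edgeR, 0.158) and without MyLa replicate 2 (0.0524). That of IL12RB1, the other chain, was lost with DESeq2 (adjusted p = 0.0768), without H9 replicate 1 (edgeR, 0.0905) and without MyLa replicate 1 (0.052). The granzyme GZMB did not meet the rule, with no count in H9, 3 counts in MyLa, and 106 and 129 CPM in Mac1. XCL1, a chemokine of activated T and NK cells, was at 20.7 and 23.7 CPM in H9 and at no more than 0.522 elsewhere; it can share reads with XCL2. Of 17 tested regulatory T cell genes 4 (23.5%) were higher and 5 (29.4%) lower, not far from the shares of all tested genes (28.5% and 23.6%). Among the lower ones were EBI3 (3.04, 166 and 116) and CTLA4 (0, 1.28 and 0.395).

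Antigen presentation genes were mostly lower. Of 19 tested class I genes 11 (57.9%) were lower in H9 and 1 (ERAP1, 5.26%) higher, beside 23.6% and 28.5% of all tested genes. The list's median log2 differences were -0.40 against MyLa and -1.01 against Mac1. HLA-C had means of 191, 684 and 1247 and B2M, the light chain, of 864, 1135 and 1817. ERAP2, a peptide-trimming enzyme, was 10.2-fold and 4.54-fold lower, the only class I gene lower at the 4-fold rule. HLA-B (1029, 715 and 3337) did not meet the rule. HLA genes are near-identical and highly variable, so reads of one may be counted for another.
Of 20 tested class II genes 11 (55.0%) were lower and 1 (CTSS, a lysosomal protease, 5.0%) higher, beside 23.6% and 28.5% of all genes. HLA-DPA1 was at 184 and 178 CPM in H9, at 1130 to 1192 in MyLa and at 1039 and 1090 in Mac1. HLA-DMA, which loads peptides, had means of 16.3, 252 and 174 and CIITA, the class II master regulator, of 142, 480 and 323. HLA-DRA did not follow: it was at 305 and 298 CPM in H9, at 0 in all 3 MyLa libraries and at 1693 and 1763 in Mac1. HLA-DPA1 and HLA-DPB1 lie on opposite strands and overlap, and no source used here says whether reads were counted by strand, so their reads cannot be told apart. The same limit holds for other genes with an overlapping gene on the opposite strand, among them LEF1, BCL2L11, SOCS1, ADAM19 and BCAT1.
The B7 ligands that presenting cells use were lower too. CD86 was at 0 and 0.073 CPM in H9, at 120, 114 and 114 in MyLa and at 176 and 173 in Mac1. CD80 had means of 0.902, 39.8 and 26.5, and CD276 (B7-H3) was at 0, 38 and 46.6.

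Transcription factors of the T lineage split almost evenly, with 17 of 54 tested (31.5%) higher and 15 (27.8%) lower in H9. Both shares were near those of all tested genes (28.5% and 23.6%). LEF1, a WNT effector of early and naive T cells, was at 436 and 434 CPM in H9, at 52, 52.1 and 50 in MyLa and at 0 in Mac1. IKZF2 (Helios) was at 119 and 116 CPM in H9 and had 1 count in all 5 other libraries, and IKZF3 (Aiolos) had means of 331, 45 and 34.4. BACH2, a repressor that keeps T cells naive or memory-like, was at 98.8, 19.7 and 0, ZBTB16 (PLZF) at 55.6, 1.03 and 0 and IRF8 at 17.7, 0 and 0.
Other factors were lower in H9. IRF4, induced by TCR signals, was at 0.148 and 0.073 CPM in H9, at 102, 110 and 106 in MyLa and at 619 and 637 in Mac1. H9 was 958-fold below MyLa and 5678-fold below Mac1 (edgeR adjusted p = 3.74e-17 and 6.39e-18). Its partners BATF (31.2, 127 and 257) and BATF3 (17.1, 135 and 371) were lower in the same order. RUNX2 (3.55, 85.8 and 37.8), ID2 (1.89, 38.8 and 18.2), ZEB2 (1.16, 10.1 and 68.5) and SATB1, a chromatin organiser lost in Sézary cells (0.496, 12.4 and 173), were also lower. MSC (musculin), a repressor with a helix-loop-helix domain, had no count in H9 and was at 223 to 231 CPM in MyLa and 576 and 614 in Mac1.

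**Figure D5:**
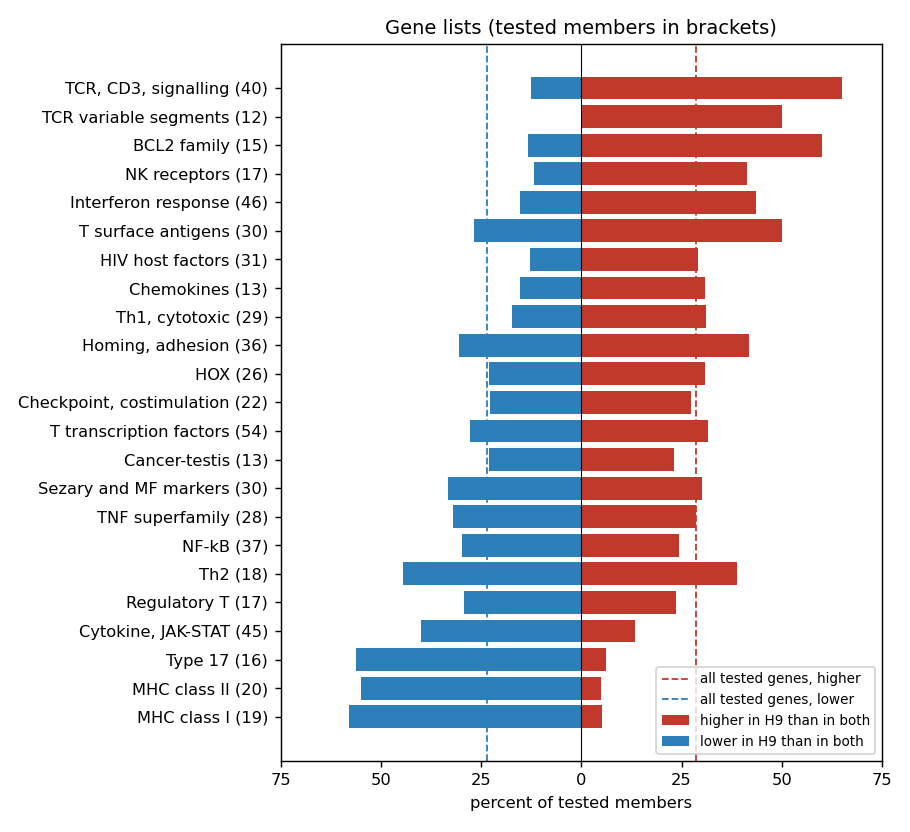
Percent of tested members of each gene list drawn that were higher (right) or lower (left) in H9 than in both other lines. Dashed lines mark the values of all tested genes (28.5% and 23.6%), and numbers of tested members are in brackets. The cell cycle inhibitor and stress response list, the defining T cell markers and the markers of other cell types are not drawn. TCR and BCL2 family lists reach 65.0% and 60.0% on the right, and MHC class I, MHC class II and type 17 lists lie between 55.0% and 57.9% on the left.

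Interferon response genes were more often higher in H9, with 20 of 46 tested (43.5%) higher and 7 (15.2%) lower. Among all tested genes 28.5% were higher and 23.6% lower. XAF1, an antagonist of apoptosis inhibitors, was at 149 and 145 CPM in H9, at 0 in MyLa and at 0.774 and 0.487 in Mac1. OAS3, which makes the activator of RNase L, had means of 120, 0.0243 and 24.4 and GBP1, an interferon-induced GTPase, of 121, 0.556 and 18.6. The lower members included IFIT1, IFIT2 and IFIT3, with IFIT2 at 1.56, 8.73 and 13.6, and BST2 (tetherin), at 75.3, 314 and 318.
H9 is a classical host for growing HIV. Of 31 tested genes known to help or restrict that virus, 9 were higher and 4 (12.9%) lower in H9. The higher share was near that of all tested genes (28.5%), and the lower share was below theirs (23.6%). SLFN11, which limits viral protein synthesis, was at 232 and 218 CPM in H9, 0 in MyLa and 110 and 108 in Mac1, and SLFN5 had means of 320, 26.9 and 0.874. APOBEC3G, a restriction factor, was at 61.6, 5.56 and 52.2. CXCR4, a coreceptor of the virus and a homing receptor, did not meet the rule, at means of 251 ± 0.977 (n = 2), 197 ± 4.48 (n = 3) and 243 ± 6.9 (n = 2). H9 was above MyLa by a log2 difference of 0.34 ± 0.0433 SE (edgeR adjusted p = 3.66e-06), and its difference from Mac1 was 0.04 ± 0.0475 SE (edgeR adjusted p = 0.46). Without TMM scaling the difference from Mac1 was 0.29 and was called (edgeR adjusted p = 2.7e-05).

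Adhesion and homing genes changed in both directions, with 15 of 36 tested (41.7%) higher and 11 (30.6%) lower. The shares of all tested genes were 28.5% and 23.6%. ITGB2 (CD18), the beta chain of LFA-1, was at 591 and 577 CPM in H9, at 30, 30 and 32.2 in MyLa and at 0.0673 and 0.0348 in Mac1. ITGAL, the alpha chain of LFA-1, did not meet the rule, with log2 differences of -0.46 against MyLa and 1.53 against Mac1. Alpha chains of other integrins were higher in H9, ITGA6 (22.5, 0 and 0.0168), ITGA5 (39.9, 0 and 9.75) and ITGA1 (32.9, 3.11 and 0.0336). S1PR1, the receptor that lets T cells leave lymphoid tissue, was at 0.408 and 0.438 CPM in H9, at 43.9 to 52.9 in MyLa and at 183 and 200 in Mac1. FUT7, the enzyme that makes the skin-homing CLA epitope, was at 0.0365 and 0.037 CPM in H9, 75.8 to 81.1 in MyLa and 26.1 and 27 in Mac1. Of 28 tested TNF superfamily genes 8 (28.6%) were higher and 9 (32.1%) lower, shares near those of all tested genes (28.5% and 23.6%). TNFSF8, which encodes CD30 ligand, was at 32.9 and 34.6 CPM in H9 and at 0 in the others. Its receptor TNFRSF8 (CD30) had means of 167, 129 and 1298 and failed the rule. TNFRSF25 (DR3) was at 0.276, 130 and 112 and TNFSF14 (LIGHT) at 0, 15.5 and 27.3.

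Of 30 tested genes reported as markers of Sézary or mycosis fungoides cells, 9 (30.0%) were higher and 10 (33.3%) lower in H9. Over all tested genes the shares were 28.5% and 23.6%. PLS3, an actin-bundling protein expressed by Sézary cells, was at 22.3 and 21.2 CPM in H9 and at 0 in the other lines, at least 583-fold above MyLa and 424-fold above Mac1. NEDD4L, a ubiquitin ligase, had means of 94.2, 0 and 13. TWIST1, a transcription factor also reported in Sézary cells, was at 0.185 and 0.146 CPM in H9, at 13.7 to 14.8 in MyLa and at 47.5 and 57.3 in Mac1. JUNB, an AP-1 subunit, was at 71.9 and 72.5 CPM in H9, 846 to 880 in MyLa and 793 and 906 in Mac1. DNM3 (0.441, 19.2 and 0.665) differed from MyLa only (edgeR adjusted p = 0.136 against Mac1). TOX had means of 117, 56.9 and 133, higher than MyLa, and its difference of -0.19 from Mac1 (edgeR adjusted p = 0.0109) did not hold without TMM scaling, at 0.058 (adjusted p = 0.368), or without H9 replicate 2 (-0.14, adjusted p = 0.109) or Mac1 replicate 2 (-0.09, adjusted p = 0.237). PLS3 and TWIST1, markers of the same disease, thus separated H9 in opposite directions.

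Among coding genes at 5 CPM or more, leaving out chromosome Y and receptor variable segments, those with the largest smaller fold of both contrasts included several outside the lymphocyte lists. ACTG2, a smooth muscle actin, was the first of the higher genes, at 305 and 330 CPM in H9, 0 in MyLa and 0 and 0.0348 in Mac1. EPCAM, an epithelial adhesion molecule, was at 74.7 and 72 CPM and ESRP1, an epithelial splicing regulator, at 81.6 and 76.1, with at most 0.0348 elsewhere. EPCAM is among the 12 keratinocyte and epithelial markers, of which 5 (KRT14, KRT1, KRT19, DSP and DSG3) had no count in H9. Of the 5 tested markers 1 was higher and 1 lower in H9, and the marker sum was highest in MyLa. MARCKS, an actin-binding kinase substrate, was at 181 and 174 CPM against 0. PARVG, EMID1, TNS4, CAMSAP3 and NPTX1, at means of 65.2 to 200 CPM in H9, were 0.216 or below in every MyLa and Mac1 library. SPINT2, a protease inhibitor of epithelia and part of a run on chromosome 19, had means of 409, 1.51 and 0. B cell receptor genes were expressed too: CD79A was at 197 and 174 CPM in H9, 4.76 to 6.55 in MyLa and 0.101 or below in Mac1, while the B cell factor EBF1 had no count in H9 and means of 53.8 and 13.6 in the others. RGS16, a regulator of G protein signals, reached 829 and 823 CPM against 25.3 to 26.7 and 10.2 to 12.5.

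Amino acid enzymes stood out on both sides. ASS1, which makes the arginine precursor, was at 252 and 238 CPM in H9, had 1 count in the MyLa libraries and was at 0 in Mac1. BCAT1, the cytosolic branched-chain aminotransferase whose promoter is shown above, was at 0 in both H9 libraries, at 374, 391 and 368 in MyLa and at 400 and 416 in Mac1, so H9 was at least 6847-fold and 7392-fold lower. PSAT1, of serine synthesis, was at 0 in H9, 136, 137 and 122 in MyLa and 287 and 300 in Mac1. All T-ALL lines had both, BCAT1 at 74.7 to 523 CPM and PSAT1 at 137 to 898, so for these genes H9 was the line apart among all 7. No count of either was found in the H9 knockdown libraries.
The first of the lower genes was ADAM19, a membrane metalloprotease, at 0 in H9, 452 to 487 CPM in MyLa and 564 and 640 in Mac1. CYP1B1, a xenobiotic oxidase, was at 0 against 244 to 265 and 274 and 300, and ADD2, a cytoskeletal adducin, at 0 against 94.8 to 101 and 330 and 346. MTUS1, SLC17A9, ATL3, CAVIN3 and TUBB6 were at 0.219 CPM or below in H9 and at means of 57.5 to 151 in the other lines. PRAME, a cancer-testis antigen, was at 0.741 and 0.621 CPM in H9, 130 to 134 in MyLa and 55.8 and 58.7 in Mac1. HOXC6 had means of 0.221, 16.3 and 9.82 and HOXC9 of 3.83, 46.5 and 17.9, while HOXA3 was higher, at 6.79, 0.965 and 1.42. Over the HOX clusters 8 of 26 tested genes (30.8%) were higher and 6 (23.1%) lower, near the shares of all tested genes (28.5% and 23.6%).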

How the data were processed

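Polyadenylated RNA was measured in 36 libraries of 7 lines, of which the 7 control libraries of H9 (2), MyLa (3) and Mac1 (2) were compared. The deposited values are expected counts per gene, which the authors made with cutadapt 2.3, STAR 2.7.8a and RSEM 1.3.3 on GRCh38 (hg38), per the submitters' processing notes. No source used here gives the annotation release or strand setting. The deposited values were whole, so rounding changed 0 of them, and 5 reporter identifiers had a total of 0 counts and were left out. Of 60628 identifiers 58516 (96.5%) were in GENCODE 29, which gave coordinates and overlaps.

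Groups came from the titles. edgeR 4.0.16 (R 4.3.3) fitted 1 mean per line with TMM scaling and filterByExpr (18123 genes tested), with quasi-likelihood F tests and Benjamini-Hochberg adjustment over all tested genes. Depth was 25896554 to 34033717 counts, and a 0 over a line's libraries allows 3 counts. The same model was fitted to the 8 knockdown libraries and to the controls of all 7 lines. A simulation made the lines alike except for genes changed in H9, 100 by 2-fold and 100 by 4-fold, all at 1 CPM or more. Every gene was given the fitted common dispersion. With 17181 genes tested, 94% of 2-fold and 100% of 4-fold differences were recovered with 0 false calls. The real lines differ in most genes and many called genes are lower, so this gives no error rate for the comparison. Members and gene lists were chosen with earlier results of these data known. Named genes were the 15 coding genes per direction with the largest smaller fold at 5 CPM or more, up to 5 members per list and direction, receptor segments at 5 CPM or more, genes of runs, and 16 genes named whatever their values (GATA3, CD4, CCR4, TNFRSF8, TOX, PLS3, TWIST1, DNM3, KIR3DL2, CD3E, HLA-DRA, CXCR4, NFKB2, CDKN2A, IL17F and GZMB). List members named beyond these, such as CD3D, FYN, ITGB2 or BCL2, and MTAP were chosen after their values were seen, as was the chromosome 19 zinc finger group. The ranking by fold left out genes of chromosome Y, XIST, TSIX and receptor variable segments. Alternatives used DESeq2 1.42.0 and limma 3.58.1; some genes are not reported here; other steps used Python 3.11.15.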

Additional observations from a re-analysis of the deposited data

How the results depend on the processing

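Over leaving out each of the 7 libraries in turn, genes higher in H9 than in both lines numbered 4796 to 5276 and lower ones 3837 to 4155, and at 4-fold 1592 to 1761 and 887 to 928. In single contrasts they numbered 6833 to 7583 higher and 6629 to 7127 lower against MyLa, and 7063 to 7459 and 6594 to 6915 against Mac1. Where 1 library of H9 or Mac1 remained, it was assumed to vary like the other groups. A test against a minimum log2 fold change of 1 asks for more and left 2259 higher and 1371 lower than both, 3429 and 3155 against MyLa, and 3872 and 2934 against Mac1. A 2-fold rule in place of 4-fold gave 2667 and 1858. Replicate numbers were checked as a pairing, and correlations between deviations of same-numbered libraries ran from -0.0723 to 0.0624. With 2 libraries each in H9 and Mac1, their deviations from the line mean are mirror images. These weak correlations therefore cannot decide whether the numbers mark a pairing. With the replicate block 4923 genes were higher and 4051 lower than both, and at 4-fold 1624 and 881, of which 1607 and 873 were among those reported. Library totals without TMM moved the median of all genes by 0.06 against MyLa and 0.25 against Mac1 (log2). This reversed TOX against Mac1, to 0.058 from -0.19, and added a call for CXCR4. DESeq2, its size factors, limma-voom, other filters, all 36 libraries in one fit and an 8-fold rule kept all these counts within 1.5 times. Depth limits genes under about 0.05 CPM in a line.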
